A study of Mus musculus with 4 samples.

Results

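Astrocytes are the main supporting glia of the hippocampus, and 10 genes that mark them were followed here: Apoe, Clu, Gfap, Aqp4, Aldoc, Slc1a2, Slc1a3, Glul, Gja1 and Sparcl1. The genes were taken by name, and each probe set whose array annotation gives exactly 1 gene symbol on that list was used. This found 15 probe sets of 9 genes among the 12422 probe sets that are not array controls, and no probe set named by Slc1a3 alone was analysed here. Of the 9 genes, 6 had more than 1 probe set, and Aldoc, Slc1a2 and Sparcl1 had 1. The samples were total RNA of the dentate gyrus from young male C57BL/6J mice. All were handled controls with no other treatment, taken 1, 2, 4 and 6 h after shocked mice of the same study had their last shock. The labels give no genetic change and no exact age, and the number of mice behind each RNA is not stated. Each hour had 1 array, so no value at an hour has a replicate, and a mean ± SD below runs over the 4 arrays (n = 4), differences between hours included.

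Astrocytes take up the glutamate that neurons release, mostly through the transporters made from Slc1a2 and Slc1a3, and glutamine synthetase (Glul) turns it into glutamine, which is handed back to neurons. Aquaporin 4 (Aqp4) lets water cross the astrocyte endfeet that wrap vessels, and connexin 43 (Gja1) forms the gap junctions that couple astrocytes into a network. Apolipoprotein E (Apoe) and clusterin (Clu) are secreted lipid carriers, Gfap makes the astrocyte intermediate filament, Aldoc is the aldolase of brain glycolysis, and Sparcl1 (hevin) is a secreted matrix protein that promotes synapse formation. Several are made elsewhere too: Apoe by microglia, Apoe and Clu by choroid plexus, Glul by oligodendrocytes and Sparcl1 by endothelial cells. In a tissue RNA, fewer cells of a type and less RNA per cell cannot be told apart.

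Most of the astrocyte genes had nearly the same level in all 4 control arrays. Apoe, Clu, Gfap, Aldoc, Gja1 and Sparcl1 each stayed within a 1.34-fold range on every probe set kept for the test, while Aqp4, Glul and Slc1a2 had a probe set with a wider range, lowest at 1 h. None of the tested astrocyte probe sets passed the test for a trend over the hours. Intensity is the brightness of a probe set on a linear scale, and it ranks hours of 1 probe set but not the transcript levels of different genes. A probe set was kept when its mean log2 intensity, with values under 16.4 set to that floor, reached 6.66. This kept 7453 probe sets, 14 of the astrocyte ones among them, and left out the dimmer probe set of Apoe.

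The 1 h array differed from the others over the whole array and bears on each comparison made with it. For Gapdh, a control transcript read at both ends, the 3' to 5' intensity ratio was 4.88 at 1 h and 1.13, 1.33 and 1.24 at 2, 4 and 6 h. For beta-actin it was 2.51 at 1 h and 1.83, 2.20 and 1.97 later. At 1 h, 394 of 7453 kept probe sets (5.29%) were at least 2-fold lower than the other 3 arrays on average and 134 (1.80%) at least 2-fold higher. The same counts, lower and higher, were 118 and 135 at 2 h, 104 and 106 at 4 h, and 138 and 68 at 6 h. By these counts the 1 h array stood out on the lower side, while on the higher side it was like 2 h. For Aqp4, Glul and Slc1a2, some values without the 1 h array are also given.

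The lipid carriers were among the steady genes. Apoe (probe set 95356_at) read 26202, 29401, 33547 and 30307 at 1, 2, 4 and 6 h, a mean of 29864 ± 3021 (SD, n = 4). The lowest value was at 1 h and the highest at 4 h, 1.28-fold apart, and without the 1 h array the range was 1.14-fold. The other Apoe probe set, 161321_i_at, read 43.1, 13.1, 43.1 and 8.2, under the floor of 16.4 in 2 of the 4 arrays, and was not tested. The suffix _i_at marks a probe set built with fewer suitable probes than the standard design. Clu (95286_at) read 9899, 9152, 11546 and 10419, a mean of 10254 ± 1006 (SD, n = 4). Its second probe set, 161294_f_at, read 4473, 3424, 3803 and 3516. The suffix _f_at means that the probes can also match related sequences. Both Clu probe sets were lowest at 2 h, but 95286_at was highest at 4 h and 161294_f_at at 1 h.

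Gfap, the filament gene whose rise marks reactive astrocytes, hardly differed between the hours. The brighter probe set, 94144_g_at, read 2344, 2140, 2261 and 1941 at 1, 2, 4 and 6 h, and 94143_at read 349, 374, 374 and 353. The SD of log2 intensity over the 4 arrays was 0.119 for 94144_g_at and 0.054 for 94143_at, the smallest of the 14 astrocyte probe sets, against a median of 0.243 over all 7453 kept probe sets. The probe sets were drawn from the same sequence record, so they are not independent readings of the gene. Aldoc (160546_at) read 10364, 12713, 11769 and 11008, highest at 2 h and lowest at 1 h, with a range of 1.23-fold. Sparcl1 (160319_at) read 10313, 8749, 8967 and 8914, so that the 1 h array was highest and the other 3 lay within 1.02-fold of each other.

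The channel-forming genes differed from each other in how steady they were. Gja1 (100064_f_at) read 6466, 5681, 5825 and 6215 at 1, 2, 4 and 6 h, a mean of 6047 ± 359 (SD, n = 4). Its dimmer probe set from the same record, 100065_r_at, read 376, 301, 308 and 402, with the higher values again at 1 and 6 h. The suffix _r_at marks probes picked under relaxed design rules. Aqp4 was lowest at 1 h on both of its probe sets. The brighter one, 102704_at, read 1751, 2312, 2602 and 2692, which is the only steadily increasing series among the kept astrocyte probe sets. On 102703_s_at the values were 217, 613, 702 and 649, so the later 3 arrays lay within 1.15-fold of each other and the 1 h value lay well under all of them. The suffix _s_at means that the probes match several transcripts.

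The glutamate genes Slc1a2 and Glul also differed between the hours. Slc1a2 (96202_at) read 270, 640, 343 and 370 at 1, 2, 4 and 6 h. It was highest at 2 h, and without the 1 h array the range was still 1.87-fold, the widest of the 14. Glul gave opposite readings on its probe sets. On 94852_at it read 200, 595, 551 and 469, lowest at 1 h. On 161826_r_at it read 866, 657, 755 and 552, highest at 1 h. Without the 1 h array the ranges were 1.27-fold on 94852_at and 1.37-fold on 161826_r_at, each lowest at 6 h. Oligodendrocytes also make Glul, and their 12 kept probe sets, of 7 genes, summed to 15540, 22675, 15688 and 16030 at 1, 2, 4 and 6 h. Of the 12, 10 were highest at 2 h, against 25.4% of all kept probe sets. At 2 h 7 of 16 neuronal and 7 of 12 reactive astrocyte probe sets were highest as well. Slc1a2 and Glul 94852_at were also highest at 2 h, but Glul 161826_r_at was highest at 1 h. The part of oligodendrocytes in the Slc1a2 and Glul values was not tested.

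**Figure D1:**
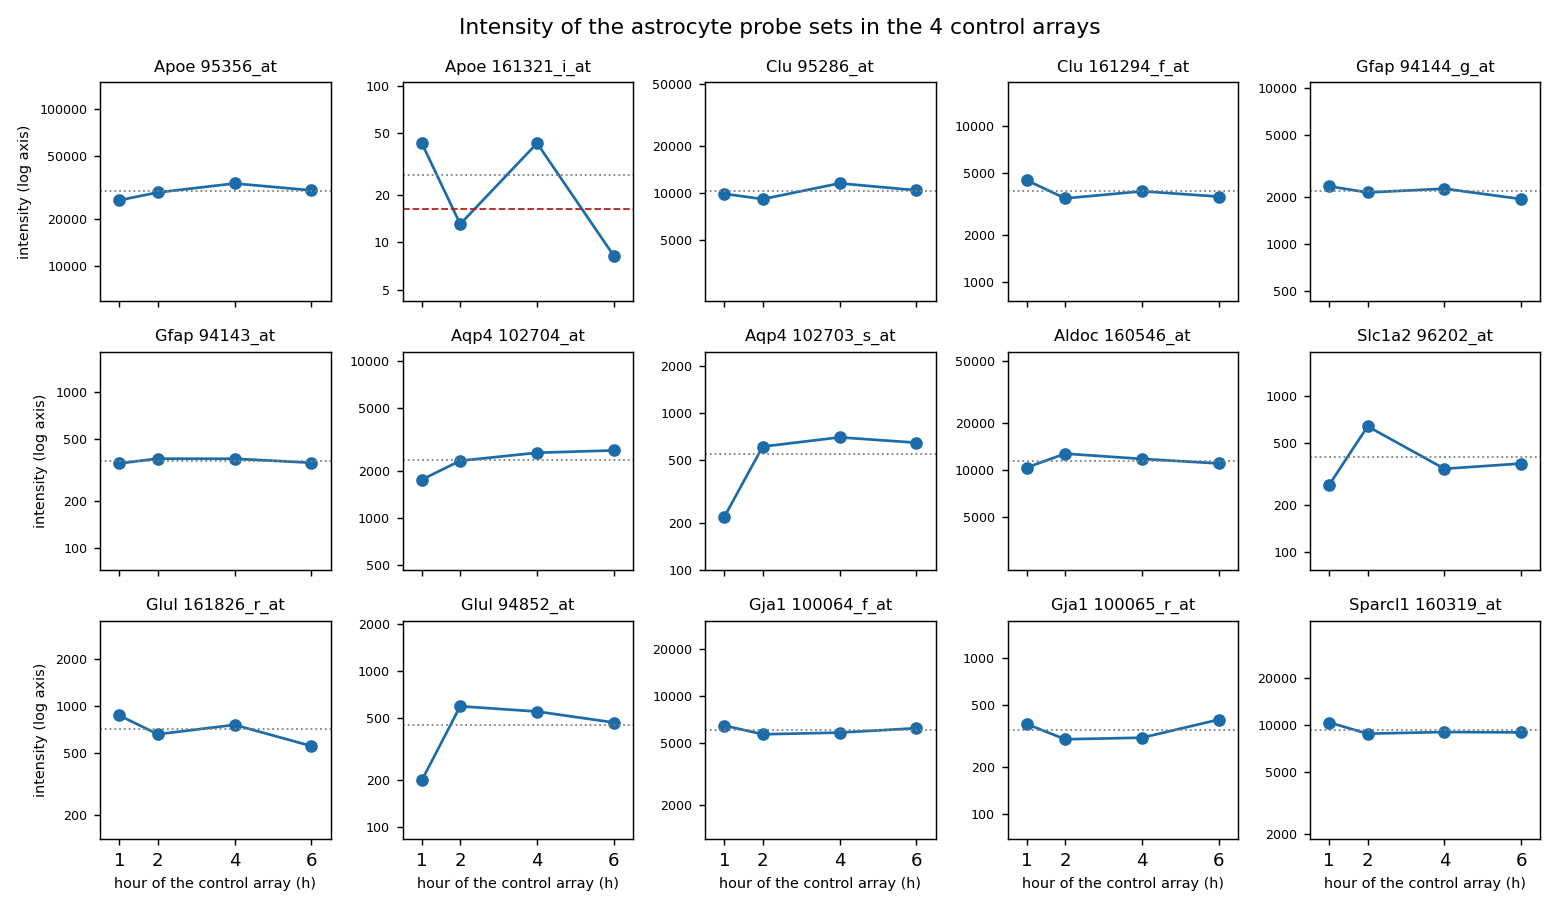
Intensity of each of the 15 astrocyte probe sets (log axis, spanning the same fold in every panel) against the hour of the control array (h), with 1 point per array. The dotted line is the mean of the 4 arrays and the dashed line the floor of 16.4; Aqp4 102703_s_at (217 at 1 h) and Glul 94852_at (200 at 1 h) are low in the 1 h array, and Slc1a2 96202_at is high at 2 h (640).

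Whether the astrocyte genes changed steadily over the control hours was asked with a straight line fitted to log2 intensity against the hour for all 7453 kept probe sets. Of the 14 astrocyte probe sets, 0 passed an adjusted p of 0.05 in limma, where 1 of 7453 (0.0134%) passed in all, that of Ttr, a choroid plexus gene. At an unadjusted p under 0.05 there was 1 of the 14, against 328 of 7453, and no other tool was run. That probe set was the brighter one of Aqp4, with a slope of 0.11 ± 0.04 log2 units per hour (SE; unadjusted p = 0.0416, adjusted p = 0.874 in limma). Its dimmer probe set had a slope of 0.25 ± 0.11 (SE; adjusted p = 0.874 in limma). Without the 1 h array the slopes were 0.055 and 0.021. The Glul slopes had opposite signs, at 0.17 ± 0.12 for 94852_at and -0.10 ± 0.05 for 161826_r_at (SE), and without the 1 h array both were negative, at -0.09 and -0.06. The other 10 slopes lay between -0.044 and 0.043. Of the 14 slopes 7 were positive, against 3469 of 7453, and the median was 0.00, against -0.01 over all kept probe sets. With 4 arrays and 2 residual degrees of freedom, a slope that misses the threshold does not show that a level was constant.

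Differences of a later hour from 1 h have 1 array on each side and therefore no test, and the 3 comparisons share the 1 h array. At 2 h, 3 of the 14 astrocyte probe sets were at least 2-fold higher than at 1 h, against 6.35% of all kept probe sets, and 0 were at least 2-fold lower, against 3.45%. They were Glul 94852_at (595 at 2 h, against 200 at 1 h, 2.98-fold), Aqp4 102703_s_at (613 against 217, 2.82-fold) and Slc1a2 (640 against 270, 2.37-fold). At 4 h, 2 of the 14 were at least 2-fold higher, against 5.68% of all, and 0 lower, against 2.74%. These were Aqp4 102703_s_at (702 at 4 h, against 217 at 1 h, 3.23-fold) and Glul 94852_at (551 against 200, 2.75-fold). At 6 h the same 2 probe sets were at least 2-fold higher, at 2.99-fold for Aqp4 and 2.34-fold for Glul, against 5.69% of all, and 0 were lower, against 3.65%. Set against the mean of the other later arrays in place of 1 h, the counts at 2, 4 and 6 h were 0, 0 and 0. The share of all kept probe sets was not counted for that reference, so these counts cannot be compared with the array. With so few probe sets, the counts are not a result about astrocyte genes as a group.

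Between the later hours the astrocyte genes were closer together than against 1 h, as were all kept probe sets. At 4 h against 2 h, 6 h against 2 h and 6 h against 4 h, 0 of the 14 differed at least 2-fold, where 4.55%, 4.07% and 3.84% of all kept probe sets did. With 14 probe sets and shares this small, a count of 0 does not set the astrocyte genes apart. The median size of the log2 difference in these pairs was 0.132, 0.164 and 0.113 for the astrocyte probe sets, against 0.223, 0.206 and 0.189 for all. For 2, 4 and 6 h against 1 h it was 0.309, 0.228 and 0.241, against 0.318, 0.304 and 0.305 for all. Over the 4 arrays, 9 of the 14 had an SD of log2 intensity under the median of all kept probe sets (0.243), and 11 of 14 without the 1 h array (median of all 0.182). The median SD was 0.16 for the astrocyte probe sets and 0.24 for all. Brighter probe sets usually vary less on the log scale, and 8 of the 14 had a mean intensity above 1000, so brightness and gene group cannot be told apart here.

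At 1 h the astrocyte probe sets did not lie on 1 side of the other arrays. Against the mean log2 intensity at 2, 4 and 6 h, 8 of the 14 were lower and 6 higher at 1 h, where 3381 of 7453 (45.4%) were lower among all. Only Aqp4 102703_s_at and Glul 94852_at of the 14 passed 2-fold, by -1.59 and -1.42 on the log2 scale, and 0 of the 14 were at least 2-fold higher. Slc1a2 followed at -0.68 and the brighter Aqp4 probe set at -0.53. The highest at 1 h were Glul 161826_r_at, at 0.42, and Clu 161294_f_at, at 0.32. The Gapdh ratio of 4.88 belongs to that array, and its part in these differences was not tested.

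**Figure D2:**
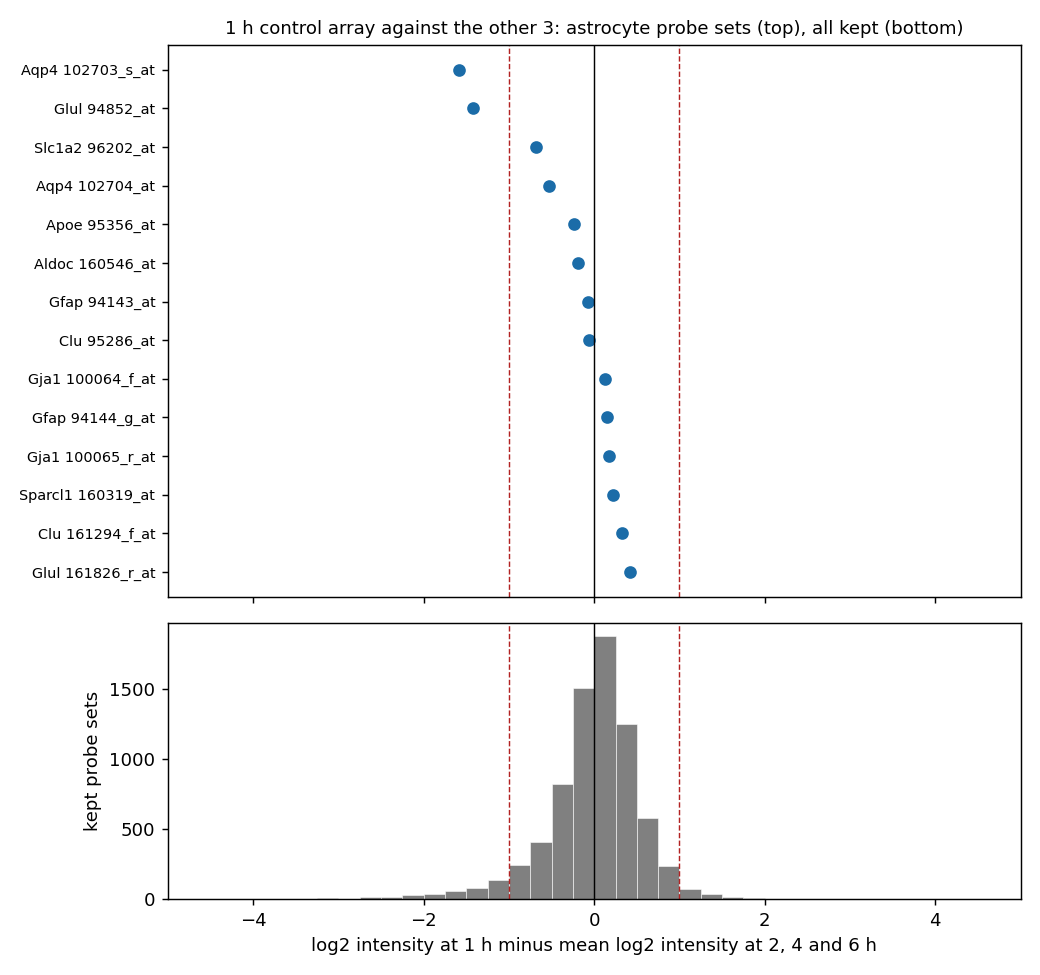
Top, log2 intensity at 1 h minus the mean log2 intensity at 2, 4 and 6 h for the 14 kept astrocyte probe sets, 1 point each. Bottom, the number of all 7453 kept probe sets in each bin of the same difference; dashed lines mark 2-fold, which Aqp4 102703_s_at (-1.59) and Glul 94852_at (-1.42) pass on the lower side.

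Probe sets of the same gene offered a check within the arrays. For 5 astrocyte genes both probe sets were kept, and the distance between their profiles was taken as the root mean square difference of log2 values, each centred on its own mean. Gfap, Gja1 and Clu had close pairs, at 0.108, 0.120 and 0.180, against a median of 0.327 over the 1200 same-gene pairs on the array (909 genes). Aqp4 lay farther apart at 0.462, and Glul at 0.803, wider than all but 8.58% of the pairs. Without the 1 h array the distances were 0.071 for Aqp4 and 0.130 for Glul, against a median of 0.224, so both pairs were closer together than the median pair once that array was left out. Pairs share a gene, and some also share a sequence record, so these distances are a description.

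**Figure D3:**
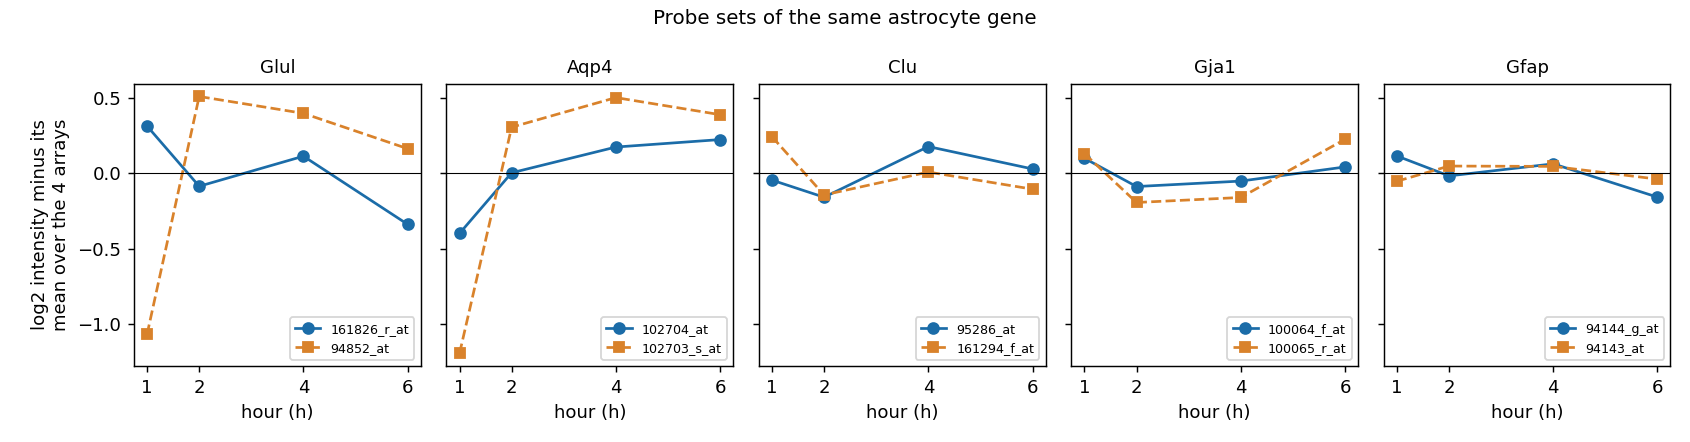
Log2 intensity minus its mean over the 4 arrays, against the hour (h), for the 5 astrocyte genes with a pair of kept probe sets; circles with solid lines are the brighter probe set and squares with dashed lines the dimmer one. The Glul pair parts at 1 h (distance 0.803) and the Gfap pair stays together (0.108).

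Other genes that mark astrocytes came from a list of 30, chosen with earlier results of these data known. They had 25 probe sets of 18 genes, of which 21 were kept. In limma 0 of the 21 passed the trend test in either direction, and 2 had an unadjusted p under 0.05. Over all 7453 kept probe sets, 1 passed in limma and 328 had an unadjusted p under 0.05. Of the 21 slopes, 8 were positive and 13 negative (median -0.02, against -0.01 over all). The brightest were Cst3, which makes the protease inhibitor cystatin C (30254, 27026, 29280 and 24431 at 1, 2, 4 and 6 h), and Mt3, the brain metallothionein (26442, 19082, 22070 and 21689). Microglia express Cst3 as well. The widest range was that of Hes5, a target of Notch signalling (51.9, 183, 187 and 151), low at 1 h. The 21 probe sets summed to 114696, 97406, 106832 and 101679, highest at 1 h. The 14 probe sets described above summed to 74092, 76752, 83351 and 77806, lowest at 1 h. The brightest probe sets weigh most in such sums: Cst3, Mt3, Mt2 and Mt1 in the first, and Apoe 95356_at in the second. By probe set, 8 of the 21 were highest and 8 lowest at 1 h, and of the 14, 5 were highest and 7 lowest. Over all kept probe sets, 35.4% were highest and 30.5% lowest at 1 h. Atp1b2, a sodium pump subunit (187, 526, 413 and 378), and a second probe set of Cst3, 161522_i_at (2935, 1001, 1069 and 926), also differed at least 2-fold at 1 h from the other arrays, in opposite directions, and were chosen after their values were seen.

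Genes that rise in reactive astrocytes gave no call. Of 23 probe sets of 15 such genes, 12 were kept, where 7453 of 12422 were kept over the array. In limma 0 of the 12 passed the trend test, against 1 of 7453 over all kept probe sets. At an unadjusted p under 0.05 in limma there were 0 of the 12, against 328 of 7453. Slopes were positive in 2 of the 12, against 3469 of 7453 over all kept probe sets. Serpina3n, a secreted protease inhibitor, read 1603, 1805, 1525 and 1519 at 1, 2, 4 and 6 h, and Stat3, a transcription factor of cytokine signalling, 884, 972, 1116 and 764. Vim, the filament gene that astrocytes express beside Gfap, read 187, 107, 132 and 66.2, the widest range of that list. With a slope of -0.24 ± 0.13 (SE; adjusted p = 0.874 in limma), it did not pass the test.

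The pathway partners of the astrocyte genes gave 0 calls in limma in either direction. Over all kept probe sets, for comparison with the counts of these lists, 3469 of 7453 slopes were positive. In limma 1 of the 7453 passed and 328 had an unadjusted p under 0.05. Receptors, transporters and enzymes that handle Apoe particles kept 15 of 20 probe sets, with 5 of 15 slopes positive and 0 at an unadjusted p under 0.05. Lrp1, an Apoe receptor, read 1413, 2180, 2027 and 1971 at 1, 2, 4 and 6 h, and Lrpap1, its chaperone, 2112, 1846, 2132 and 1861. Lcat, which esterifies cholesterol on lipoproteins, had the widest range (156, 102, 182 and 84.4 on an _r_at probe set). Its brighter probe set, 103023_at, differed less (690, 785, 696 and 812). The glutamate and glutamine cycle kept 9 of 18, with 4 of 9 slopes positive and 0 at that p. Gad1, the neuronal enzyme that makes GABA from glutamate, read 4067, 4128, 4181 and 4310, Asns, the asparagine synthetase, 3078, 3889, 3764 and 3506, and Slc1a6, a neuronal glutamate transporter, 87.1, 247, 181 and 102.

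Partners of the water channel and gap junctions kept 11 of 22 probe sets, with 2 of 11 slopes positive and 1 at an unadjusted p under 0.05. Over all kept probe sets these counts were 3469 and 328 of 7453. Dag1, the dystroglycan that anchors the endfoot complex of Aqp4, read 1732, 1722, 1613 and 1741 at 1, 2, 4 and 6 h, and Tjp1, which binds connexins at junctions, 1073, 1413, 815 and 1028. Dtna, a dystrobrevin of the same endfoot complex, read 109, 275, 203 and 260, lowest at 1 h. Of the 11 probe sets 4 were lowest at 1 h, against 30.5% of all kept probe sets. Intermediate filament genes kept 12 of 18, with 3 of 12 slopes positive and 1 at that p. Ina, a neuronal filament, read 5034, 5042, 4293 and 4609 on its brightest probe set and 4314, 3596, 3559 and 3534 on the next, and Des, the muscle filament desmin, had the widest range (144, 106, 195 and 39.7). Among the aldolases and the SPARC family, 9 of 9 were kept, 4 of 9 slopes were positive and 0 had an unadjusted p under 0.05. Aldoa, the aldolase of muscle and most tissues, read 12615, 14966, 15426 and 15003 on 160090_f_at, lowest at 1 h. On 161889_f_at it read 7305.1, 4422.7, 4402.5 and 4625.4, highest at 1 h. Spock2, a matrix proteoglycan related to Sparcl1, read 8454, 7950, 7870 and 8494, and Smoc2, of the same family, 432, 679, 384 and 524.

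Markers of other cells in the dissected tissue did not move alike. Over all 7453 kept probe sets, for comparison, 3469 slopes were positive and 3984 negative, and 30.5% of the probe sets were lowest at 1 h. In limma 1 of the 7453 passed and 328 had an unadjusted p under 0.05. The choroid plexus and ependymal markers (6 of 11 probe sets kept) summed to 2492, 4574, 5899 and 7724 at 1, 2, 4 and 6 h, with 5 of 6 slopes positive. They include Ttr (225, 444, 1258 and 3009, with a slope of 0.74 ± 0.05 SE and an adjusted p of 0.0232 in limma) and Igf2 (1501, 2876, 3282 and 3269). Only Ttr of the 6 rose at every hour, and it weighs heavily in the sum. From 4 to 6 h Igf2, Igfbp2 (830 to 663) and Kl (195 to 190) did not rise, while Folr1 (118 to 267) and Foxj1 (216 to 326) did. Choroid plexus also makes Apoe and Clu, which were highest at 4 h on their brighter probe sets and not at 6 h. The part of this tissue in their values was not tested. Neuronal markers (16 of 18 kept) summed to 61866, 65501, 62001 and 67893, with 11 of the 16 lowest at 1 h. Snap25 and Thy1, the brightest of them, were highest at 1 h (22175 and 13715), while Map2, of widest range, read 27.9 at 1 h and 496, 246 and 266 later. In limma 0 of the 16 passed, 1 had an unadjusted p under 0.05, and 13 slopes were positive. The microglial markers (12 of 20 kept) summed to 10810, 11372, 11514 and 11129, with 0 calls in limma, 0 at an unadjusted p under 0.05 and 7 of 12 slopes positive. Ctss, a lysosomal protease, was the brightest of them (3025, 2426, 2671 and 2356), followed by C1qc, a complement chain (1394, 1943, 1731 and 1839). C1qb, another chain of that complex, had the widest range (216, 126, 181 and 100.4 on an _i_at probe set), highest at 1 h. Its brighter probe set, 96020_at, went the other way (656, 993, 891 and 960), lowest at 1 h. The 12 oligodendrocyte probe sets had 0 calls in limma, 1 at an unadjusted p under 0.05 and 7 positive slopes. Among these, the myelin gene Mobp read 6091, 6907, 4428 and 4297 on the brightest probe set, with a slope of -0.13 ± 0.05 (SE; adjusted p = 0.874 in limma). On the probe set of widest range, Mobp read 223, 862, 377 and 472. Mbp, another myelin protein gene, read 3998, 5931, 4590 and 4588. All 3 series were highest at 2 h. The endothelial and mural markers (8 of 12 kept) summed to 2998, 2290, 2123 and 1790, with 8 of 8 slopes negative, 0 passing the test in limma and 1 at an unadjusted p under 0.05. Eng, an endothelial co-receptor (1252, 659, 662 and 730), and Cldn5, a tight junction protein (364, 517, 401 and 241), were the brightest of these. Flt1, an endothelial receptor, had the widest range (328, 65.8, 186 and 55.3). In the microglial list 1 probe set was under the floor of 16.4 in all 4 arrays, and in the other marker lists of this paragraph 0 were.

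**Figure D4:**
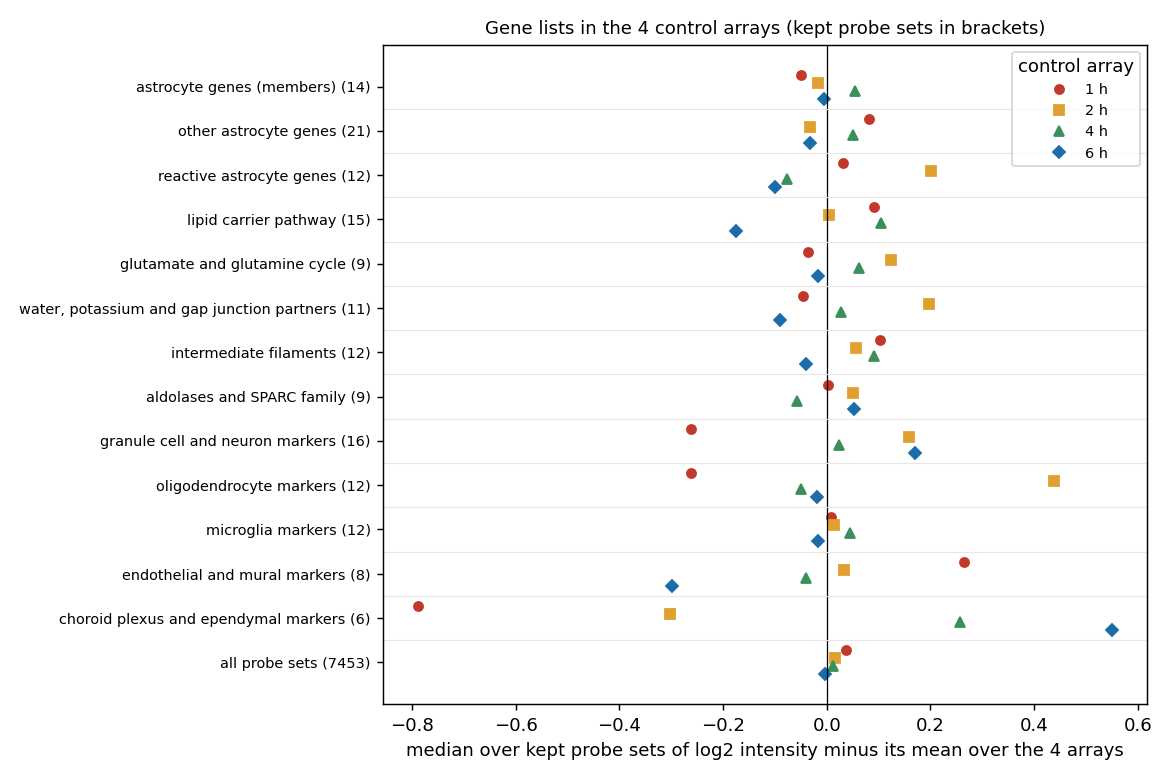
Median over the kept probe sets of each gene list (number in brackets) of log2 intensity minus its mean over the 4 arrays, with 1 symbol for each control hour. The medians of the astrocyte genes stay between -0.049 and 0.054, while single astrocyte probe sets lie farther out. Those of all probe sets stay between -0.003 and 0.037, and those of microglial markers between -0.017 and 0.045. Choroid plexus and ependymal markers run from -0.788 at 1 h to 0.551 at 6 h.

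The profile most like that of Aqp4 102703_s_at, the kept astrocyte probe set of widest range, was looked for among the other 7439 kept probe sets by the same root mean square distance over the 4 arrays. The nearest were Ubxn1 (169, 506, 568 and 514 at 1, 2, 4 and 6 h, a distance of 0.032), Urod (51.1, 151, 172 and 151, a distance of 0.037) and Rxra (82.3, 226, 260 and 256, a distance of 0.040). In all, 26 probe sets lay within 0.1 and 78 within 0.2. The 3 nearest were chosen for likeness to Aqp4 102703_s_at over the 4 arrays. That they too were lowest at 1 h and highest at 4 h is therefore not a separate observation.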

How the data were processed

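The authors deposited 1 table of linear-scale intensity, with a row per probe set and a column for each of 4 arrays. No software, scaling method or genome build is given in the sources used here. The 2%-trimmed mean over all rows was 500.3 in every array, within the 5% set as the limit, so values were used as deposited. Gene names came from the array annotation, with symbols updated through Entrez identifiers. The floor was the 10th percentile of non-control values (16.4), log2 was taken, and probe sets under the 40th percentile of mean log2 (6.66) were left out. The slope was fitted with limma 3.58.1 in R 4.3.3 (lmFit and eBayes with an intensity trend, 2 residual degrees of freedom), two-sided, with Benjamini-Hochberg adjustment over 7453 probe sets at 0.05. The fit was tested on simulated data. P-values rest on how far these 4 arrays depart from a straight line over the hours, with variance information shared across probe sets. They do not measure a spread among replicates, and the number of arrays limits precision. The rule for named genes took every astrocyte probe set, and of each list the 2 brightest, the widest in range and any that passed, plus the 3 nearest profiles. The members and lists were chosen with earlier results of these data known.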

Additional observations from a re-analysis of the deposited data

How the results depend on the processing

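The count of astrocyte probe sets past the trend threshold in limma was 0 under every alternative run: scaling to the same median, no filter, a filter at the 60th percentile, a floor at the 20th percentile, log2 of the hour, a variance prior without a trend, and each array left out. The lowest adjusted p among them was 0.227 in limma, without the 2 h array. Over all kept probe sets the count of 1 fell to 0 with no filter (694 at an unadjusted p under 0.05 in limma) and with a prior without a trend (360), and ranged from 0 to 1 when each array was left out (0 without the 4 h or the 6 h array, with 166 and 230 at that p). The counts of 3, 2 and 2 astrocyte probe sets at least 2-fold from 1 h at 2, 4 and 6 h did not change with the other scaling, the filter at the 60th percentile or the other floor. With no filter they were 4, 2 and 3, the dimmer Apoe probe set being added as lower at 2 and 6 h. They were 0, 0 and 0 against the mean of the other 3 arrays. That mean includes later arrays, so a probe set low only at 1 h differs less from it than from 1 h. Aqp4 102703_s_at lay at 0.41, 0.67 and 0.52 on the log2 scale at 2, 4 and 6 h. Slc1a2 at 2 h lay at 0.98, just short of 2-fold. By that reference few of all 7453 kept probe sets passed either. At 2, 4 and 6 h, 135, 106 and 68 of them were higher and 118, 104 and 138 lower. The astrocyte counts were also 0, 0 and 0 against the mean of the other 2 arrays without the 1 h array, a reference chosen after seeing the data.

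Of 140 recomputed slopes, 18 changed sign, none of them called. With arrays scaled to the same median the slopes were 0.019 for Gfap 94143_at, 0.017 for Slc1a2 and 0.018 for Gja1 100064_f_at, and on the log2 of the hour 0.009 for that Gfap probe set and 0.065 for Slc1a2. With each array left out in turn, the slopes that changed sign ranged from -0.07 to 0.01 for Clu 161294_f_at, -0.022 to 0.028 for Gfap 94143_at, -0.052 to 0.044 for Aldoc 160546_at, -0.198 to 0.093 for Slc1a2 96202_at, -0.086 to 0.41 for Glul 94852_at, -0.041 to 0.032 for Gja1 100064_f_at, -0.08 to 0.105 for Gja1 100065_r_at and -0.055 to 0.007 for Sparcl1 160319_at. No paired analysis was possible because each hour had 1 array. The cause of these changes was not tested.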
